A study of Rattus norvegicus with 6 samples.

Results

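The long noncoding RNAs expressed in rat H9C2 cells were the 205 genes that the deposited count table types as lncRNA and that had a mean of at least 3 CPM over the 6 libraries. CPM is a gene's count scaled to a common library total, with no correction for gene length. The table holds 19825 genes, of which 3284 are typed as lncRNA. The members were thus chosen by their mean level over both groups, so their levels are a description. The rule did not use the contrast between the groups, but near the limit a high level in 1 group can carry an RNA over it. Of the members, 10 had a mean of 3 CPM or more in siPUM2 only and 1 in NC only. Where 3 values are given for a group, they are in the order of its libraries 1, 2 and 3.

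H9C2 is a line of myoblasts from embryonic rat heart, which the labels call cardiomyocytes. In the siPUM2 group (n = 3 libraries) the RNA-binding protein PUM2 was reduced with a transfected small interfering RNA. In the NC group (n = 3 libraries) the labels describe transfection of an empty vector. No time after transfection is given in the labels, both groups are of this 1 cell line, and the labels do not say that libraries came from separate cultures. P-values therefore measure only the spread between these libraries, which may be technical. Both groups were made from RNA captured by its poly(A) tail, so long noncoding RNAs without such a tail are measured poorly or not at all.

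Long noncoding RNAs are transcripts that are not known to be translated. Some act as RNA in the nucleus, on chromatin or on neighbouring genes, and others bind proteins or microRNAs in the cytoplasm. Some serve mainly as host transcripts, whose processing releases a microRNA or, from their introns, a small nucleolar RNA (snoRNA) that guides modification of ribosomal RNA. In muscle and heart cells, H19, Carmn and the hosts of the microRNA clusters miR-143/145 and miR-322/503 have been linked to differentiation.

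The libraries held 27704702 counts (siPUM2 2) to 30579237 counts (NC 3), so 1 count was worth 0.0327 to 0.0361 CPM, and the lowest count of any member in any library was 61. Pum2 was at 222, 228 and 226 CPM in NC and 128, 126 and 119 CPM in siPUM2 (log2 fold change -0.86 ± 0.0279, SE; edgeR adjusted p = 9.23e-19). The share of counts in rows typed as ribosomal RNA was highest in siPUM2 3 (0.368%), where the remaining 5 libraries had 0.287% to 0.313%. Without siPUM2 3, 38 members were called higher and 14 lower, against 34 and 14 with all libraries. Of 13 cardiomyocyte markers 12 had a row and 5 reached 1 CPM (Tnnt2, Nkx2-5, Gata4, Pln and Nppb), while Myh6, Myh7, Actc1, Tnni3, Ryr2, Myl2 and Myl7 stayed under 1 CPM in each library. Their summed level was 308 to 365 CPM in NC and 475 to 528 CPM in siPUM2, nearly all of it Tnnt2. The skeletal myoblast markers Myod1, Myog, Des and Cdh15 were present (341 to 345 CPM summed in NC, 359 to 384 CPM in siPUM2). They went both ways: Myog, the myogenic factor myogenin, fell from 20.1 to 9.23 CPM (log2 fold change -1.12), while Cdh15 (0.20) and Des (0.17) were called higher and Myod1 was not called. Of the fibroblast list, Thy1 alone reached 1 CPM. No endothelial, macrophage or Schwann cell marker with a row reached a mean of 1 CPM. The part of these shifts in the results below was not tested.

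Sequences of microRNAs that lie inside members called higher come first, because these members are described as hosts below. For its shared seed miR-125b-5p is added, which is listed for Mir125b2 inside an uncalled member. Of the 205 members, 158 could be matched to a RefSeq gene of the assembly GRCr8, and 11 of these span at least 1 microRNA gene. The mature sequences below are RefSeq's, 5′ to 3′, with the seed (bases 2 to 8) in capitals. The seed is the stretch by which a microRNA mainly recognises its targets. Mature microRNAs were not measured in these libraries, and the tables used do not give the strand of H19 or LOC102550366.
miR-675-5p, inside H19: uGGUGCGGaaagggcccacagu
miR-322-5p, inside LOC102550366: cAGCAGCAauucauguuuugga
miR-503-5p, inside LOC102550366: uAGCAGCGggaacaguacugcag
miR-351-5p, inside LOC102550366: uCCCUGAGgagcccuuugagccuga
miR-125b-5p, inside LOC103693508: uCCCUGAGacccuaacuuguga
miR-143-3p, inside Carmn: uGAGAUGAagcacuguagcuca
miR-145-5p, inside Carmn: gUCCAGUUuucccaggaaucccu
miR-34a-5p, inside LOC103692514: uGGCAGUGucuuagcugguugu
miR-100-5p, inside Lnc215: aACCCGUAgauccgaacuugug
let-7a-5p, inside Lnc215 and LOC120097935: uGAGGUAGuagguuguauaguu

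Some seeds recur between members. The seed CCCUGAG is shared by miR-351-5p, inside a member that rose, and miR-125b-5p, listed for Mir125b2 inside LOC103693508, which was not called. Mir125b1, the other miR-125b gene, lies inside Lnc215, which was called higher. The let-7 seed GAGGUAG lies inside 3 members, Lnc215, LOC120097935 and LOC103693508. The seeds of miR-322-5p and miR-503-5p, AGCAGCA and AGCAGCG, share their first 6 bases.

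The knockdown comparison asks which of these RNAs change when PUM2 is reduced. The labels name a vector and no small interfering RNA for the control. If that is so, effects of the reduction of PUM2 and of the transfected material cannot be told apart in any difference below. In siPUM2, 34 of the 205 members were called higher and 14 lower, led in level by H19, the single member over 100 CPM, which rose 1.25-fold. The 34 called higher are 16.6% of the members, where 15.1% of all 12985 genes tested were called higher. The 14 called lower are 6.83% of the members, where 13.3% of all genes were. In both directions together, 48 members (23.4%) were called, against 28.4% of all genes and 28.4% of the 8219 protein-coding genes from 3 CPM up to the level of the second highest member. A call means that the p-value of the quasi-likelihood test in edgeR, after Benjamini-Hochberg adjustment over all genes tested, was under 0.05. The share called higher was near that of all genes and the share called lower was below it, which is a description with no test of the list. These backgrounds are not matched for level. The median was 6.83 CPM in the members, 23.5 CPM in all genes tested and 25.7 CPM in those protein-coding genes. Calls were rarer at low levels, so counts by level and direction are given below. In bulk RNA, a change in the number of cells that express an RNA and a change in its amount per cell cannot be told apart.

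Every one of the 205 members passed the filter on low counts. The median log2 fold change (siPUM2 minus NC) of the members was 0.07, and 128 were above 0, while the median of all genes tested was 0.001. The middle of the distribution ran from -0.19 (10th percentile) to 0.37 (90th percentile) in the members, and from -0.22 to 0.27 in all genes tested. Changes were small. The median called member differed 1.26-fold, against 1.15-fold for all called genes, and 25 members (12.2%, against 5.94% of all genes) were called with at least a 1.25-fold difference. Only LOC120096887 (higher) and LOC102555109 (lower) reached 1.5-fold. These fold sizes and shares are not matched for level. Members were lower in level than all genes tested, and called members differed more at low levels, as described below. The groups did not overlap in 70 members (34.1%, against 39.8% of all genes), with siPUM2 above NC in 48 and below in 22. Of the 48 called members, 47 were among these 70, and the exception was Lnc215.

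Most members were low, and the size of a called change followed the level. Of the 205, 133 had a mean under 10 CPM and 23 had 30 CPM or more. In the band from 3 to 5 CPM, 7 of 75 members were called higher and 1 lower, and the median called difference there was 1.45-fold. At 30 CPM or more, 9 of 23 were called higher and 7 lower, with a median called difference of 1.15-fold. The median SE of the log2 fold change was 0.147 in the lowest band and 0.0528 in the highest, so a difference that was called in an abundant member would not have been detectable in a low one. Protein-coding genes were called in 11.9% of cases in the lowest band and in 43.7% in the highest, which reaches to far higher levels than the members do. By direction, 41 of 554 were called higher and 25 lower in the lowest band, and 1241 of 5613 higher and 1212 lower in the highest. From 5 to 10 CPM, 9 of 58 members were called higher and 2 lower, against 99 and 76 of 1072 protein-coding genes. From 10 to 30 CPM these counts were 9 and 4 of 49, against 440 and 327 of 3002. Just inside the level limit were LOC102546431 (3.08 CPM), LOC120099912 (3.07 CPM) and LOC120097450 (3.01 CPM), and just outside were LOC120096684 (2.96 CPM), LOC120099889 (2.95 CPM) and LOC102551976 (2.95 CPM). In 194 members the mean was at least 3 CPM in each group, and of those 30 were called higher and 14 lower.

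**Figure D1:**
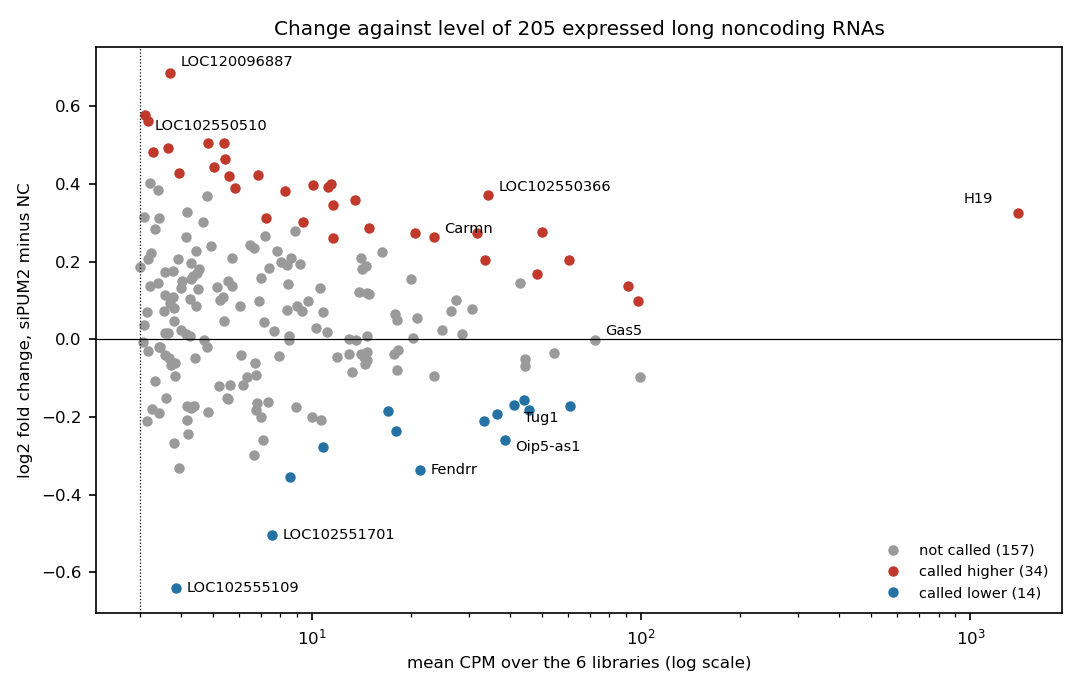
Each point is 1 of the 205 long noncoding RNAs, with its mean CPM over the 6 libraries (log scale) across and its log2 fold change (siPUM2 minus NC, edgeR) upward; colour gives the call and the dotted line the limit of 3 CPM. Calls at low levels lie far from 0, while called changes of members over 30 CPM are small, and H19 stands alone at the right.

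H19, an imprinted RNA transcribed from the maternal allele in fetal tissues and the host of miR-675, held the largest single part of all member counts. By group it took 31.1% to 34.0% of them in the NC libraries and 36.7% to 37.0% in the siPUM2 libraries. H19 was at 1160, 1319 and 1240 CPM in NC and 1551, 1562 and 1544 CPM in siPUM2. Every siPUM2 library lay above every NC library, and the NC libraries spread more widely (1239 ± 79.5 CPM) than the siPUM2 libraries (1552 ± 8.69 CPM; SD, n = 3 each). The log2 fold change was 0.32 ± 0.0311 (SE; edgeR adjusted p = 4.14e-09), and the call held in each fit that left out 1 library. By FPKM, which divides by gene length as well as by library size, H19 was the highest member at a mean of 532.

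The summed share of member counts followed H19. All members together took 0.373% to 0.387% of the counts in NC and 0.417% to 0.425% in siPUM2. Without H19 these shares were 0.255% to 0.260% and 0.262% to 0.269%. In both cases every siPUM2 library lay above every NC library, but most of the shift was H19. Igf2, the paternally expressed growth factor gene of the same imprinted domain on chromosome 1, was far lower, at 8.39, 10.1 and 11.8 CPM in NC and 21.5, 22.8 and 21.3 CPM in siPUM2. Its log2 fold change was 1.11 ± 0.0827 (edgeR adjusted p = 3.08e-11). Mrpl23, the protein-coding gene nearest to H19 in RefSeq, was not called (log2 fold change -0.06). H19 also lies inside the span of another lncRNA gene of the table, LOC102548505, which was at 0.463 to 0.916 CPM.

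Members that contain microRNA genes were called higher in 5 of 11 cases (45.5%) and lower in none, where 16.6% of all members and 15.1% of all genes tested were called higher. Their median log2 fold change was 0.17, and 9 of the 11 were above 0, against 128 of all 205 members. These backgrounds are not matched for level. Among those called, H19, Lnc215 and LOC102550366 had a mean of 30 CPM or more, a band with 9 of 23 members called higher. Carmn and LOC103692514 were between 10 and 30 CPM, where 9 of 49 members were. Ftx and Jpx span the same microRNA genes and are counted separately. The group was put together from RefSeq spans after values of these data had been seen, so it has no test. The 6 that were not called had log2 fold changes from -0.18 to 0.23.

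LOC102550366 (chromosome X) spans Mir322, Mir503 and Mir351, a cluster known for slowing the cell cycle in differentiating muscle cells. It was at 29.6, 30.7 and 29.6 CPM in NC and 38.4, 40.6 and 37.4 CPM in siPUM2. The groups did not overlap, and the log2 fold change of 0.37 ± 0.0549 (edgeR adjusted p = 6.12e-06) was the highest of the microRNA hosts. The neighbouring placental gene Plac1 was not called (10.5 ± 0.382 to 11.1 ± 0.474 CPM; SD, n = 3).

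Carmn, listed in the table as LOC120098113 on chromosome 18, is the host of the smooth-muscle microRNAs miR-143 and miR-145. Its levels were 21.1, 21.4 and 21.5 CPM in NC and 26.3, 27.6 and 22.9 CPM in siPUM2. The NC libraries were nearly equal, and siPUM2 3 was the lowest of its group but still above them. The log2 fold change was 0.26 ± 0.0639 (edgeR adjusted p = 0.00234), and the call held without any 1 library. On log2(FPKM + 1) with no filter the adjusted p by limma was 0.101.

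The window around the annotated start of Carmn is shown because this host rose and is tied to smooth muscle. It comes from RefSeq GRCr8, chr18:57389063-57389362 on the minus strand, from 250 bases before to 50 after the start, with a CCAAT box and a TATAA box in capitals.
Carmn start window: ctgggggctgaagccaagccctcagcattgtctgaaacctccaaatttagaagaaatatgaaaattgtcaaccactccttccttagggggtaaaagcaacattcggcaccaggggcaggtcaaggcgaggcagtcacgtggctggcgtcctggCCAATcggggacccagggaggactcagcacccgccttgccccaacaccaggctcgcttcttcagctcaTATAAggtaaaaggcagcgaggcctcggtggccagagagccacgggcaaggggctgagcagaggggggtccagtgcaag

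The motif CCAAT begins 97 bases and TATAA 29 bases before the start. The motifs were chosen after the data had been seen and searched on both strands. Of 27457 genes with such a window, 39.6% hold CCAAT and 27.7% hold TATAA anywhere in it, and of the 133 members with a window 45.9% and 28.6% do. The CArG box, the site of serum response factor in smooth-muscle promoters, had no match in this window. It occurs in 1.77% of all windows and in 3.01% of the members' windows.

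LOC103692514 (chromosome 5) spans Mir34a, a microRNA induced by p53. It was at 14.4, 12.9 and 13.1 CPM in NC and 16.2, 18.0 and 15.0 CPM in siPUM2, with no overlap. The log2 fold change was 0.29 ± 0.0757 (edgeR adjusted p = 0.00458), and the call was lost without siPUM2 2, the highest library (0.22, adjusted p = 0.0612). It was also lost on log2(FPKM + 1), with a limma adjusted p of 0.105.

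Lnc215 (chromosome 8) spans Mir100, Mirlet7a-2 and Mir125b1, and is the least secure of the 5. It was at 46.7, 41.8 and 47.4 CPM in NC and 57.6, 49.3 and 45.7 CPM in siPUM2. The groups overlapped, since siPUM2 3 lay below NC 1 and NC 3. The log2 fold change of 0.17 ± 0.0625 (edgeR adjusted p = 0.0445) fell to 0.07 without siPUM2 1 (adjusted p = 0.431) and 0.11 without NC 2 (adjusted p = 0.283). The call was also lost without NC 1 (adjusted p = 0.0689) and without siPUM2 2 (adjusted p = 0.0604), and DESeq2 gave an adjusted p of 0.290. RefSeq places Mir100hgl, a gene typed as protein-coding, on the same strand over Lnc215, and it was at 24.2 CPM in each group.

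The remaining microRNA hosts did not pass the test. LOC120097935, over the let-7a-1, let-7f-1 and let-7d genes, was at 6.90 to 7.52 CPM in NC and 7.89 to 9.31 CPM in siPUM2 (log2 fold change 0.23 ± 0.0988; edgeR adjusted p = 0.0860). LOC120099382, over Mir221 and Mir222, which restrain a cell-cycle inhibitor, had a log2 fold change of -0.08 ± 0.0645. LOC108352541, over Mir181a-1 and Mir181b1, had 0.02 ± 0.101. LOC103693508, over Mir99a, Mirlet7c1 and Mir125b2, was the only host besides LOC120099382 with a value under 0 (-0.18 ± 0.130). Ftx and Jpx (in the table LOC102555331), lncRNA genes of the X-inactivation centre, both span Mir421 and Mir374b, which lie on the strand of Ftx and opposite to Jpx. Ftx had a log2 fold change of 0.10 ± 0.145 and Jpx of 0.15 ± 0.121. Xist itself, the RNA that coats the inactive X, was near 0 (row LOC100911498, mean 0.0558 CPM).

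**Figure D2:**
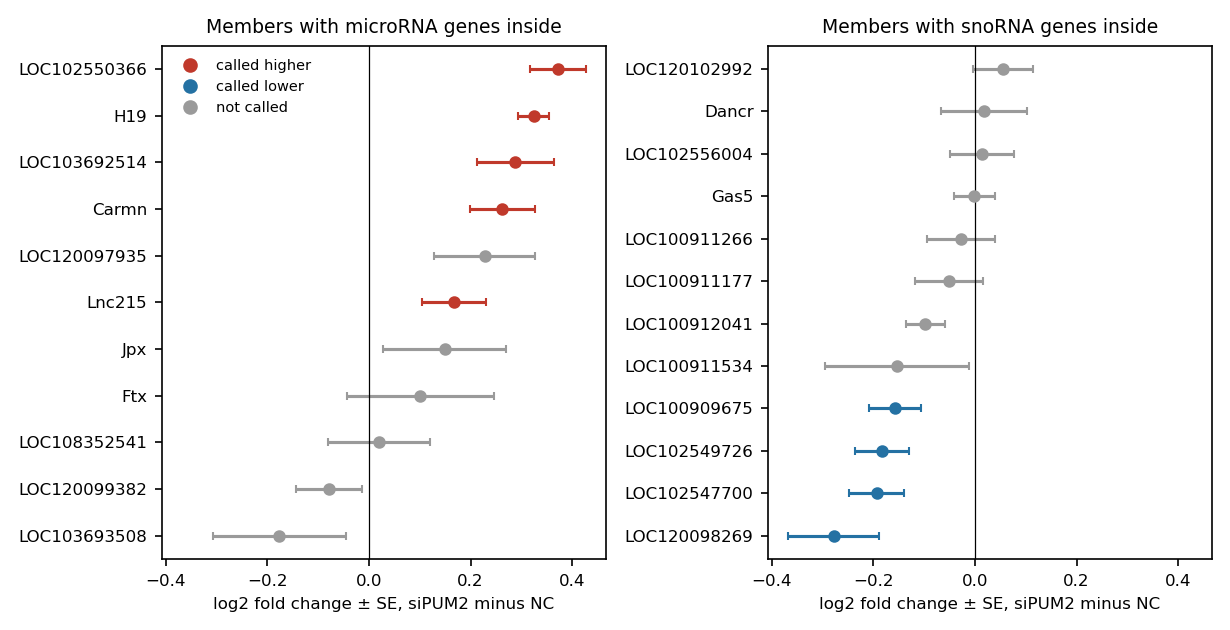
Points give the log2 fold change (siPUM2 minus NC) and bars its SE from edgeR, for the 11 members with microRNA genes inside (left) and the 12 with snoRNA genes inside (right); colour gives the call. On the left 5 points are called higher and none lower, and on the right 4 are called lower and none higher.

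Members that contain snoRNA genes were called lower in 4 of 12 cases (33.3%) and higher in none, where 6.83% of all members and 13.3% of all genes tested were called lower. Of these 4 hosts, 3 had a mean of 30 CPM or more, a band in which 7 of 23 members were called lower. Their median log2 fold change was -0.07, and 3 of the 12 were above 0. This group too was put together after values had been seen, and it has no test. Its members are called hosts by span alone, and the strand of the snoRNA genes was not compared with theirs. The 182 members in neither group had 29 called higher and 10 lower, with a median of 0.08. Of all genes tested, 15.1% were called higher and 13.3% lower. The length implied by CPM over FPKM had a median of 0.927 kb in the snoRNA hosts, where LOC102556004 stood apart at 15.7 kb, 5.75 kb in the microRNA hosts and 3.57 kb over all members.

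LOC102547700 (chromosome 14) was the lowered snoRNA host whose call held without any 1 library. It was at 39.1, 37.5 and 39.8 CPM in NC and 34.5, 33.2 and 34.1 CPM in siPUM2, with all siPUM2 libraries below all NC libraries. The log2 fold change was -0.19 ± 0.0536 (edgeR adjusted p = 0.00695). LOC102549726 (chromosome 20), over Snord48 and Snord52, was at 46.8, 46.6 and 52.2 CPM in NC and 42.0, 42.0 and 44.3 CPM in siPUM2. Its log2 fold change of -0.18 ± 0.0528 (edgeR adjusted p = 0.00939) went to -0.13 without NC 3, the highest library (adjusted p = 0.102).

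The other lowered snoRNA hosts had narrower margins. LOC100909675 (chromosome 4), over Snord93, was at 44.3, 48.5 and 46.0 CPM in NC and 42.5, 41.6 and 40.6 CPM in siPUM2 (log2 fold change -0.16 ± 0.0513; edgeR adjusted p = 0.0216). Its call was lost without NC 2 (-0.12, adjusted p = 0.131) and without siPUM2 2 (adjusted p = 0.0507). LOC120098269 (chromosome 18), beside Epb41l4a, was at 12.9, 11.1 and 11.6 CPM in NC and 9.60, 8.92 and 10.8 CPM in siPUM2. Its log2 fold change of -0.28 ± 0.0895 (edgeR adjusted p = 0.0198) was not called without NC 1 (adjusted p = 0.121), siPUM2 1 (0.0610) or siPUM2 2 (0.126).

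The remaining 8 snoRNA hosts, including the 2 highest by CPM, were not called. Gas5, a growth-arrest transcript with 9 snoRNA genes in its span, was at 68.0, 72.6 and 76.0 CPM in NC and 69.2, 74.9 and 72.5 CPM in siPUM2. The groups overlapped fully and the log2 fold change was -0.001 ± 0.0399. LOC100912041, beside the amino acid transporter gene Slc3a2 and with 7 snoRNA genes, was at 101, 102 and 105 CPM in NC and 88.4, 103 and 96.9 CPM in siPUM2 (log2 fold change -0.10 ± 0.0377; edgeR adjusted p = 0.0535). That value lay at the threshold: with DESeq2's size factors the adjusted p was 0.0452, and without siPUM2 2, the highest siPUM2 library, the log2 fold change was -0.15 (adjusted p = 0.00920). LOC100911177, beside Znfx1, had -0.05 ± 0.0673 and Dancr, an RNA that holds progenitor cells undifferentiated, 0.02 ± 0.0851. Snhg4, named as a snoRNA host but without a snoRNA in its RefSeq span, had -0.05 ± 0.137 at a mean of 4.39 CPM. Of the list of named snoRNA hosts, only Gas5, Dancr and Snhg4 were found by name, and none of these members was called. No row was found under the other names. Some of those genes may be listed under LOC symbols, as Carmn is, so the list does not describe all of them. LOC120098269, beside Epb41l4a, was called lower, while Epb41l4a-as1 had no row under its name.

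Start windows of snoRNA hosts are shown because many such transcripts are known to begin with a C followed by a run of pyrimidines, as ribosomal protein messages do. Each line has 20 bases before and 30 after the annotated start in RefSeq GRCr8. Capitals mark at least 6 pyrimidines in a row led by C within the stretch from 10 bases before to 12 after the start. Runs were cut at the ends of that stretch. LOC102549726 is at chr20:3881188-3881237 (plus strand), LOC100912041 at chr1:215048315-215048364 (plus), LOC100909675 at chr4:12184174-12184223 (minus), LOC120098269 at chr18:25678137-25678186 (plus) and Gas5 at chr13:75836943-75836992 (plus).
LOC102549726, lower: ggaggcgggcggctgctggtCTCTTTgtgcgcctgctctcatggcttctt
LOC100909675, lower: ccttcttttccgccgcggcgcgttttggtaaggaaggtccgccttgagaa
LOC120098269, lower: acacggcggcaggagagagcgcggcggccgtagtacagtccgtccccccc
LOC100912041, not called: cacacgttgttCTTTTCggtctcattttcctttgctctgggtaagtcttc
Gas5, not called: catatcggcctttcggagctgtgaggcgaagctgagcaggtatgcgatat

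Of 11 snoRNA hosts with a window 4 had such a run, against 16.8% of all 27457 genes with a window and 19.5% of the members with one. The hosts with a run were LOC102549726, called lower, and LOC100912041, LOC120102992 and Dancr, which were not called. In Dancr the counted bases are the end of a longer pyrimidine run that begins before the searched stretch. Gas5 has CCTTTC, which begins before that stretch and was not counted. The same cut was applied to all genes, so the counts depend on it. LOC102547700, called lower and not shown, had no run in either of its windows. The annotated start may be off by some bases, and the run was chosen for search after the data had been seen.

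Fendrr, a lncRNA of the lateral mesoderm that is needed for heart and body wall development in mice, fell together with its neighbour Foxf1. Fendrr (chromosome 19) was at 24.1, 22.8 and 24.5 CPM in NC and 19.4, 17.6 and 19.6 CPM in siPUM2. The groups did not overlap, and the log2 fold change was -0.34 ± 0.0618 (edgeR adjusted p = 0.000119), a call that held without any 1 library. Foxf1, a forkhead transcription factor of the same mesoderm, was at 70.3, 63.1 and 76.4 CPM in NC and 54.5, 49.3 and 53.8 CPM in siPUM2 (log2 fold change -0.41 ± 0.0525; edgeR adjusted p = 5.55e-07). Its groups did not overlap either.

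The window around the start of Fendrr is shown for a forkhead motif, since its neighbour encodes a forkhead factor. It lies at chr19:66061417-66061716 on the minus strand (RefSeq GRCr8), with the reverse complement of TGTTTAC in capitals.
Fendrr start window: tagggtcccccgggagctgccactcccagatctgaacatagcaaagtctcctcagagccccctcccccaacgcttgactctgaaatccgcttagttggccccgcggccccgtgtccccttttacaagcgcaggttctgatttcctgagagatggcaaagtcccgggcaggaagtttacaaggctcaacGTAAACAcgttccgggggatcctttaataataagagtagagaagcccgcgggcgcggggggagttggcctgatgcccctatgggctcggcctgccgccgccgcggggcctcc

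The match begins 62 bases before the start. TGTTTAC, searched on both strands, occurs in 4.13% of all windows and in 4.51% of the members' windows. A match describes the letters and does not show that a factor binds there.

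Oip5-as1, also known as Cyrano, is a conserved RNA that promotes decay of the microRNA miR-7. It was at 40.0, 40.4 and 45.4 CPM in NC and 33.4, 35.9 and 35.8 CPM in siPUM2, with all siPUM2 libraries lower. The log2 fold change was -0.26 ± 0.0581 (edgeR adjusted p = 0.00104) and held without any 1 library, while its neighbour Oip5 was not called (-0.02). Tug1, a widely expressed RNA with nuclear and cytoplasmic roles, was at 44.3, 41.8 and 44.1 CPM in NC and 40.0, 39.9 and 36.0 CPM in siPUM2. Its log2 fold change was -0.17 ± 0.0547 (edgeR adjusted p = 0.0200). The Tug1 call was lost without NC 1 (adjusted p = 0.0638), NC 3 (0.0578) or siPUM2 3 (0.0639).

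Pvt1, transcribed downstream of Myc, was at 25.0, 26.8 and 25.1 CPM in NC and 27.6, 27.6 and 25.8 CPM in siPUM2. The groups overlapped and it was not called (log2 fold change 0.07 ± 0.0578), while Myc itself went from 36.6 ± 2.80 to 29.2 ± 2.49 CPM (log2 fold change -0.32; edgeR adjusted p = 0.000259). Of the 12 names on the list of architectural and X-linked RNAs, Tug1, Pvt1, Jpx and Ftx were members, with 1 called lower and none higher. Xist was below the limit, and the other names had no row. Of the muscle list of 6, Carmn was called higher and Oip5-as1 lower, and the others had no row. Of the 9 imprinted names H19 alone had a row. No row was found under the name NORAD, a noncoding RNA known to bind Pumilio proteins. Names without a row say nothing of the levels of those RNAs. These lists were drawn up with results of these data known.

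**Figure D3:**
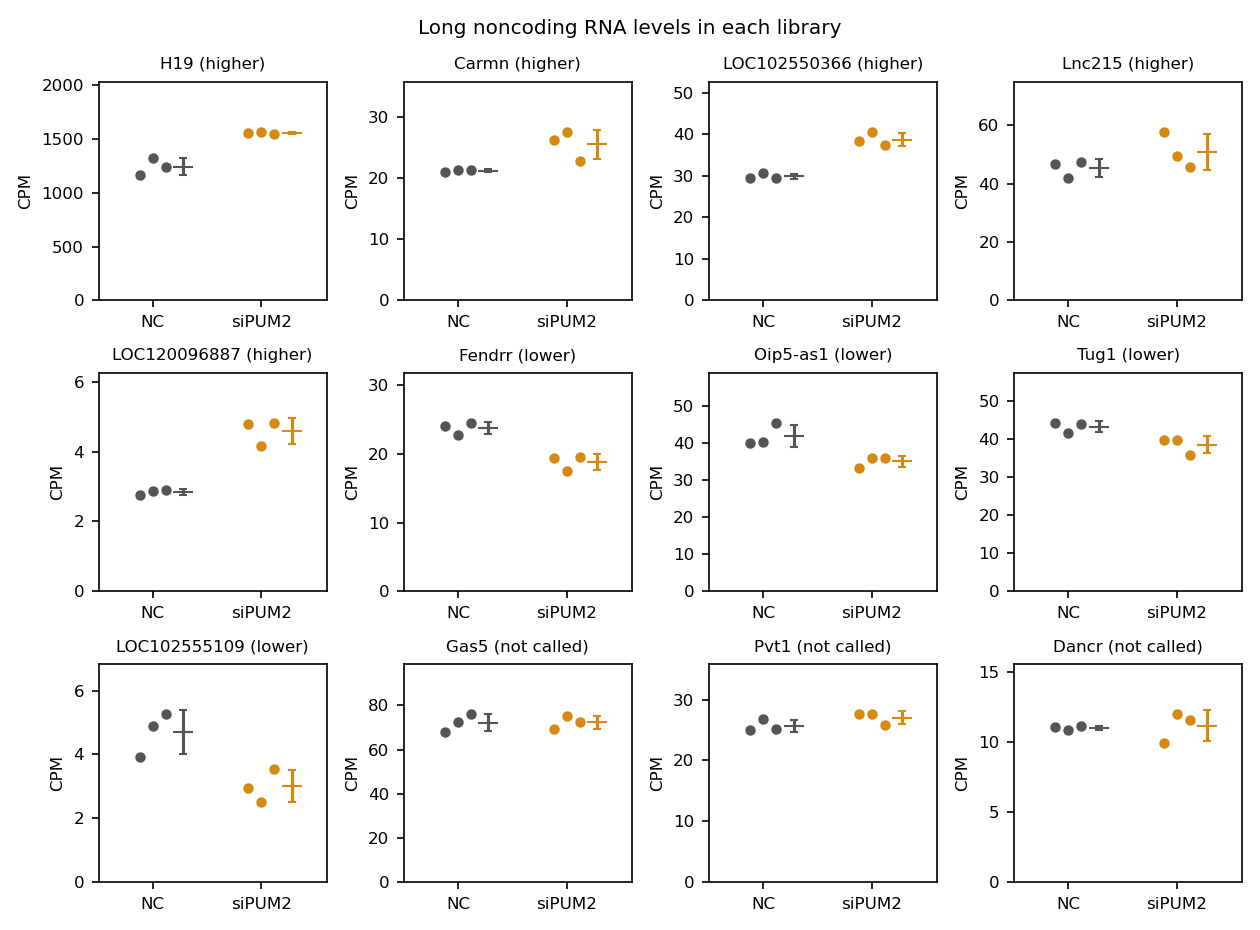
Each panel plots the CPM of 1 long noncoding RNA in the 3 NC and 3 siPUM2 libraries (points, axis from 0), with the group mean and SD beside them. H19, Carmn, LOC102550366 and LOC120096887 have every siPUM2 point above every NC point, Fendrr, Oip5-as1, Tug1 and LOC102555109 have every one below, and Lnc215, Gas5, Pvt1 and Dancr overlap.

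The members that rose most were low in level and are uncharacterised. LOC120096887 (chromosome 1) was at 2.75, 2.87 and 2.91 CPM in NC and 4.78, 4.15 and 4.82 CPM in siPUM2, 1.61-fold higher (log2 fold change 0.69 ± 0.141; edgeR adjusted p = 0.000441). Next were LOC102550510 (0.58 ± 0.163, adjusted p = 0.00799), which lies over the phospholipid scramblase gene Plscr1 on the opposite strand, and LOC120103487 (0.56 ± 0.151, adjusted p = 0.00523). The other 7 of the 10 with the largest rise, LOC120101503, LOC108349628, LOC120099895, LOC120095148, LOC102555451, LOC120102200 and LOC102549117, had log2 fold changes from 0.43 to 0.51 and means under 6 CPM. LOC120096887, LOC102550510, LOC120103487 and LOC120095148 had overall means of 3.71, 3.10, 3.17 and 3.29 CPM. Their NC means were under 3 CPM, so they passed the limit only through siPUM2. Of the 10, 5 kept their call without any 1 library. Calls were lost without siPUM2 3 for LOC102550510 (adjusted p = 0.0723) and LOC108349628 (0.0573), and without siPUM2 1 for LOC120102200 (0.0774). LOC120095148 lost its call in 5 of the 6 such fits, without NC 1 (0.0584), NC 2 (0.103), NC 3 (0.0502), siPUM2 1 (0.0919) or siPUM2 3 (0.141). LOC102549117 lost it without NC 1 (0.163), NC 2 (0.0626) or siPUM2 2, where its log2 fold change went from 0.43 to 0.27 (0.256).

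Several members with a higher mean also rose. LOC102555148 (chromosome 3) was at 45.1, 45.7 and 44.2 CPM in NC and 52.4, 53.8 and 57.6 CPM in siPUM2 (log2 fold change 0.28 ± 0.0486; edgeR adjusted p = 6.39e-05). LOC102553018 (chromosome 2) was at 56.9, 56.5 and 55.1 CPM in NC and 64.8, 67.0 and 62.4 CPM in siPUM2 (0.20 ± 0.0411, adjusted p = 0.000338). It starts beside the matricellular gene Ccn1 on the opposite strand, and Ccn1 was not called (691 ± 22.5 to 669 ± 9.50 CPM; SD, n = 3). Ptgs2os (in the table LOC100911717), which starts beside the cyclooxygenase gene Ptgs2, went from 5.03 ± 0.457 to 6.60 ± 0.213 CPM (0.39 ± 0.114, edgeR adjusted p = 0.0104). That call was lost without NC 1 (adjusted p = 0.0695), and Ptgs2 itself was at 1.11 to 1.65 CPM in all libraries. LOC680254 went from 9.86 ± 0.506 to 13.0 ± 1.01 CPM (0.40 ± 0.0839, edgeR adjusted p = 0.000525).

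Among the members that fell, LOC102555109 (chromosome 17) had the largest change. It was at 3.93, 4.89 and 5.27 CPM in NC and 2.96, 2.53 and 3.55 CPM in siPUM2, 1.56-fold lower (log2 fold change -0.64 ± 0.153; edgeR adjusted p = 0.00205). LOC102551701 (chromosome 20) followed, at 8.97, 9.55 and 8.08 CPM in NC and 7.17, 5.59 and 5.98 CPM in siPUM2 (-0.50 ± 0.108, adjusted p = 0.000638). Both kept their calls without any 1 library, and in both the groups did not overlap. LOC120093193 (chromosome 6), near the gene of the RNA-destabilising protein Zfp36l2, was at 10.6, 9.22 and 9.16 CPM in NC and 6.82, 7.11 and 8.64 CPM in siPUM2. Its log2 fold change of -0.36 ± 0.103 (edgeR adjusted p = 0.00930) lost its call without NC 1 (adjusted p = 0.0737), siPUM2 1 (0.0632) or siPUM2 2 (0.0553). LOC120099968 (-0.24) and LOC120102485 (-0.21) were called in each of these fits, and LOC120103615 (-0.17) was not without NC 1 (adjusted p = 0.113).

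Some members typed as lncRNA are protein-coding genes in RefSeq. They are Tmem80, Ndufb1, Rhno1, LOC100912557 (Atp5mpl in RefSeq), LOC100912167 and LOC102547703. Without these 6, 32 of 199 members were called higher and 13 lower, where 15.1% and 13.3% of all genes tested were. Tmem80, a transmembrane protein gene, was at 10.7, 9.42 and 11.5 CPM in NC and 12.8, 12.5 and 12.7 CPM in siPUM2 (log2 fold change 0.26 ± 0.0832; edgeR adjusted p = 0.0188), a call lost without NC 2 (0.18, adjusted p = 0.143) or siPUM2 1 (adjusted p = 0.0524). LOC100912557, a subunit of the mitochondrial ATP synthase by its RefSeq name, went from 86.9 ± 4.44 to 95.5 ± 0.893 CPM (0.14 ± 0.0343, adjusted p = 0.00320). Ndufb1, of respiratory complex I, went from 40.5 ± 1.28 to 44.8 ± 3.38 CPM and was not called (0.14 ± 0.0563, adjusted p = 0.0556). Without siPUM2 1 it was, at 0.21 (adjusted p = 0.00566). Rhno1, of the DNA damage checkpoint, went from 18.1 ± 0.801 to 15.9 ± 0.931 CPM (-0.18 ± 0.0668, adjusted p = 0.0384), and lost its call without NC 1 (adjusted p = 0.149), NC 3 (0.0602), siPUM2 2 (0.162) or siPUM2 3 (0.0947). Mtln, typed as lncRNA in both sources and known to encode the mitochondrial micropeptide mitoregulin, was not called (-0.09 ± 0.0647).

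By FPKM the 10 highest members were H19 (mean 532), Gas5 (149), LOC100912557 (149), LOC120100006 (105), LOC100912041 (101), Ndufb1 (94.2), LOC100911177 (89.0), LOC102549726 (52.7), LOC102547700 (48.1) and Mtln (46.7). Of these, 5 (Gas5, LOC100912041, LOC100911177, LOC102549726 and LOC102547700) hold snoRNA genes, and LOC100912557 and Ndufb1 are protein-coding in RefSeq. LOC120100006 was called higher by a small amount (log2 fold change 0.10 ± 0.0319; edgeR adjusted p = 0.0198), which was lost without NC 1 (adjusted p = 0.0763), NC 3 (0.0868), siPUM2 2 (0.136) or siPUM2 3 (0.0872). The other members with a proper symbol were not called. They were Tincr (0.32 ± 0.167), Hotairm1 (0.21 ± 0.189), Thumpd3-as1 (0.18 ± 0.0764), Lnc134 (0.17 ± 0.129), Crnde (0.16 ± 0.143), Lrap (0.07 ± 0.0702), Lppos (-0.04 ± 0.166) and Zbtb11os1 (-0.12 ± 0.118). Hotairm1, an RNA of the HoxA cluster, was at 4.03 and 4.04 CPM in siPUM2 1 and 2 but at 2.12 CPM in siPUM2 3, and without that library its log2 fold change was 0.45 (adjusted p = 0.0395). Thumpd3-as1 was called without NC 2 (adjusted p = 0.0434) or siPUM2 1 (0.0375).

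Neighbouring genes could be set beside 122 of the matched members, those whose nearest protein-coding gene in RefSeq was also tested. Of these neighbours 41 (33.6%) were called, against 28.4% of all genes tested. Among 15 members called higher, 1 neighbour was called higher, none lower, and 14 were not called. Among 10 members called lower, 3 neighbours were called lower, none higher, and 7 were not called. The pairs that moved together were Tmem80 with Deaf1 (log2 fold change of Deaf1 0.24), Fendrr with Foxf1, Rhno1 with Foxm1 (-0.15; not called without NC 3, adjusted p = 0.107), and LOC120093193 with Zfp36l2 (-0.31, from 486 ± 10.7 to 393 ± 5.36 CPM). Of the members in these pairs, Tmem80 and Rhno1 are protein-coding genes in RefSeq, and DESeq2 called neither. Among these members, only Fendrr kept its call without any 1 library. Tmem80 and Deaf1 start within 1 kb of each other on opposite strands, as did 33 member and neighbour pairs in all.

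Over the 122 pairs the log2 fold changes of member and neighbour had a Pearson correlation of 0.29 and a Spearman correlation of 0.26. These points share the same 6 libraries, so the correlations are a description. In RefSeq, 52 members overlap a protein-coding gene, 32 of them on the opposite strand, 3 on the same strand and 17 with a strand not given. The libraries keep strand, but the setting used for counting is not given in the sources used here, so reads of overlapping genes may not have been kept apart. Of the 34 members called higher 12 had no RefSeq match, and of the 14 called lower 1 had none, where 47 of all 205 members were unmatched. The neighbours of unmatched members are not described.

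**Figure D4:**
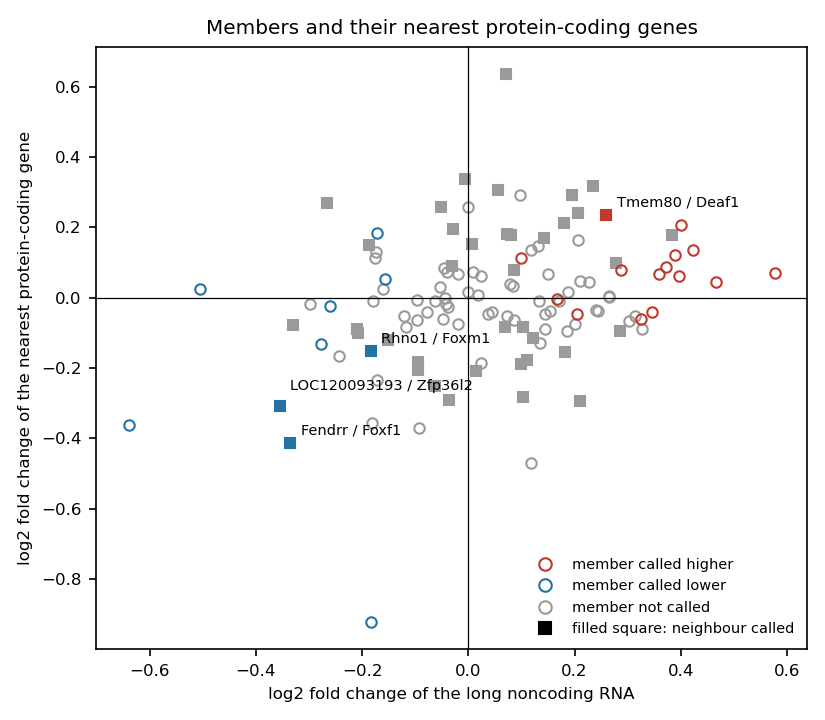
Each point is 1 of 122 long noncoding RNAs, with its log2 fold change (siPUM2 minus NC) across and that of its nearest protein-coding gene upward; colour gives the member's call, and filled squares mark neighbours that were called. In 4 cases a member was called together with its neighbour, 3 at the lower left and Tmem80 with Deaf1 at the upper right. Of these members, Tmem80 and Rhno1 are protein-coding genes in RefSeq.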

How the data were processed

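RNA sequencing libraries (3 NC and 3 siPUM2, grouped by their titles) were directional and poly(A)-captured, per the labels' protocols. Tools listed in the submitters' processing notes are HISAT2 and DESeq2, with the rat build mRatBN7.2 (no role given). Versions of these tools, the gene annotation and the program that counted reads are not named in the labels or files used here. The authors deposited raw whole-number counts for each gene, and FPKM values, which are scaled by library size and gene length. Levels are CPM, counts over the library total. The counts were tested with edgeR 4.0.16 (its quasi-likelihood test) under R 4.3.3, with TMM factors of 0.995 to 1.003, filterByExpr and group as the only term. The filter left 12985 genes. FPKM was tested with limma 3.58.1 as an alternative, and DESeq2 1.42.0 and voom were run on the counts. The SE comes from the quasi-likelihood F statistic. The fit was tested on simulated data.

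Members were matched to RefSeq tables of the assembly GRCr8 (151 by symbol, 7 by gene ID), used for names, neighbours and sequences, while the counts were made on another build. Genes were named by rule: Pum2, members on role lists or with a proper symbol, the called members that rose most (10) and fell most (10), the 10 highest by FPKM, and nearest protein-coding neighbours. Members named as hosts or as abundant examples, their motifs, Igf2, Myc and LOC102555148 were added after values were seen. The members and lists were chosen with earlier results of these data known. No library was a copy of another, since the chi-square per degree of freedom was 2.08 to 3.84 for pairs inside a group and 12.7 to 14.2 for pairs across groups. Alternatives are other scalings, filters, tools, thresholds, a replicate block and each library left out.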

Additional observations from a re-analysis of the deposited data

How the results depend on the processing

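With all libraries, 3692 genes were called, of them 34 members higher and 14 lower. On log2(FPKM + 1) with no filter these counts were 2246, 15 and 3. In the main edgeR fit with at least a 1.5-fold difference required, they were 236, 1 and 1. The cause of the first drop was not tested, and the second follows from the stricter rule. Other scalings, tools, filters and thresholds gave 2486 to 3732 genes, 25 to 40 members higher and 10 to 16 lower. Leaving out each library in turn gave 3004 to 3538 genes, 29 to 38 members higher and 10 to 14 lower. Of the 48 called members, 26 kept their call in all 6 of these fits, none changed sign in any of them, and 41 were also called by DESeq2. With the replicate number as a block, 3731 genes, 40 members higher and 15 lower were called. Among genes of 3 CPM or more, same-numbered libraries correlated at 0.013, 0.070 and -0.011. Over all genes tested, on log2(CPM + 1), the values were 0.019, 0.030 and 0.004, and there 3 of 6 libraries correlated best with their own number. The numbers were therefore not taken to pair the samples. Of 66 named genes, 43 were called. DESeq2 lost 6 of these calls (Lnc215, LOC102549117, LOC120095148, LOC120100006, Rhno1 and Tmem80), log2(FPKM + 1) 10, log2(FPKM + 0.1) 8 and log2(FPKM + 1) with no filter 25. Depth limits the members under 5 CPM most, where the SE was largest.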
